A study of Sus scrofa with 20 samples.

Results

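The immediate early stress response genes are a set of 10 genes: FOS, FOSB, JUN, JUNB, JUND, EGR1, ATF3, IER2, IER3 and DUSP1. They were chosen by name, and each symbol was matched to a pig Ensembl identifier in the table of read counts. A match was found for 9 of the 10, among 31907 genes in the table, and all 9 were among the 16275 genes with enough counts to be tested. JUND had no matching identifier and was not analysed here. RNA-seq was performed on backfat and liver of 5 Nanchukmacdon boars, a Korean breed derived in part from the black pig of Jeju, with 5 libraries per tissue. The labels give all samples as wild-type, of normal disease state and 22 months of age, and they name no treatment. The study's methods give a higher average age. The boars were euthanised with an overdose of an anaesthetic before tissue was taken, and RNA was prepared from pieces of whole tissue without separation of cell types. Libraries are named by tissue and boar number (65, 67, 69, 71 and 72).

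Immediate early genes are transcribed within minutes of a stimulus, because the factors that switch them on, such as SRF with its ELK partners and CREB, are already present and only need to be phosphorylated or moved. No new protein has to be made first. Most encode transcription factors: FOS and JUN proteins pair as AP-1, EGR1 is a zinc finger protein, and ATF3 is a stress-induced factor of the ATF/CREB family. DUSP1 is a phosphatase that switches off MAP kinases and so closes the loop. Their transcripts are short-lived, and they are well known to respond to growth factors, stretch and cellular stress.

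SRF binds the CArG box, a run of A and T letters between CC and GG, and CREB and ATF proteins bind the CRE, TGACGTCA. Both were searched for in the 1000 genomic bases before the start codon, because RefSeq places the transcript starts of these genes at very different distances from it. The sequences below were read from RefSeq's Sscrofa11.1 genome, 5′ to 3′ on the strand of the gene, with the motif in capitals. They are shown because they are the CArG boxes and the CRE found next to the most abundant of the genes and next to the gene with the largest difference between tissues. FOS and FOSB have 1 CArG box each in this window, EGR1 has 5 of which 2 are printed, and DUSP1 has 1 CRE.
FOS, chr7:98449042-98449071, plus strand, CArG box: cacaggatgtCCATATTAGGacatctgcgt
FOSB, chr6:51837436-51837465, plus strand, CArG box: gcgccgagctCCTTATATGGctaattgcgt
EGR1, chr2:140441014-140441043, plus strand, CArG box: ccggaaccacCCTTATTTGGgcagcgcctt
EGR1, chr2:140441298-140441327, plus strand, CArG box: gccggtcttgCCATATTAGGgcttcctgct
DUSP1, chr16:51457861-51457890, plus strand, CRE: ggcagggcgggTGACGTCAccacaccggtc

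The first base of the box lay 456 bases before the start codon in FOS and 831 bases before it in FOSB. In EGR1 the printed boxes began 693 and 409 bases before the start codon, and the CRE of DUSP1 began 390 bases before it. The FOS and DUSP1 matches lie upstream of the annotated transcript, while those of FOSB and EGR1 fall within the first exon of predicted transcript models. A CArG box was present in this window for 3 of the 9 genes and for 5.16% of 19528 protein-coding genes. A CRE was present for 1 of the 9 and for 2.51% of all. No match to the AP-1 site TGANTCA (22.5% of all genes) or to the EGR site GCGTGGGCG (1.4% of all, both strands searched) was found in the windows of the 9. A match is a description of letters and not a measured site of binding. Because the window is set by the start codon, it need not reach upstream of every transcript. A missing match therefore does not show that a gene lacks the site.

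The 10 RNA-seq libraries held 45157114 to 61772737 counts in backfat (median 48502902) and 43820042 to 53768601 in liver (median 48821039). Levels are given as TMM-normalised CPM, which is the count of a gene divided by the total of its library after TMM had set the typical gene equal between libraries. Adipocyte markers summed to between 11860 and 18690 CPM of all counts in backfat and at most 53.9 in liver, and hepatocyte markers to between 21280 and 85960 in liver and at most 706 in backfat. The tissue labels thus held for every library. The libraries backfat 69 and liver 67 stand apart from the others of their tissue. Backfat 69 had the highest sum of hepatocyte markers in backfat, and liver 67 spent 44.5% of its counts on mitochondrial genes, where no other library passed 20.2%. Most of the sum in backfat 69 was APOA1, at 591 CPM. ALB was 44.6 CPM there, against 0.155 to 0.480 CPM in the other backfat libraries. Liver 67 also had the lowest sum of hepatocyte markers in liver, 21280 CPM against 64970 to 85960 in the other liver libraries. Its skeletal muscle markers (118 CPM against at most 1.76) and red cell markers (1283 against at most 284) were the highest in liver. Values without both libraries are given beside the results they move by more than 1.5 times.

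Of the 9 genes, 8 were higher in backfat than in liver at a false discovery rate (FDR) of at most 0.05 in edgeR's quasi-likelihood test, and IER3 was not past this threshold. Across all tested genes 28.0% were called higher in backfat in the same way. None of the 9 was called higher in liver, where the share over all genes was 27.0%. When only library size was used for scaling, in place of TMM, these shares became 50.5% for backfat and 14.3% for liver, and all 9 genes were then called in the direction of backfat. The median log2 fold change, backfat minus liver, was 1.49 over the 9 genes and 0.00 over all tested genes. FOS and FOSB alone also reached a log2 fold change of 2, and were therefore differentially expressed genes (DEGs) by the thresholds of the study, as were 11.1% of all genes in this direction. Without backfat 69 and liver 67, ATF3 (2.16) and JUNB (2.06) were DEGs as well. ATF3 lay just under the threshold in the main fit, at 1.98, and was a DEG in 10 of 19 alternative fits. JUNB was a DEG in 2 of them and EGR1 in 1. In 4 of the 9 (FOS, FOSB, EGR1 and IER2) every backfat library lay above every liver library, which held for 22.9% of all tested genes. In bulk tissue, a larger share of cells that express a gene and more RNA of that gene per cell cannot be told apart.

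**Figure D1:**
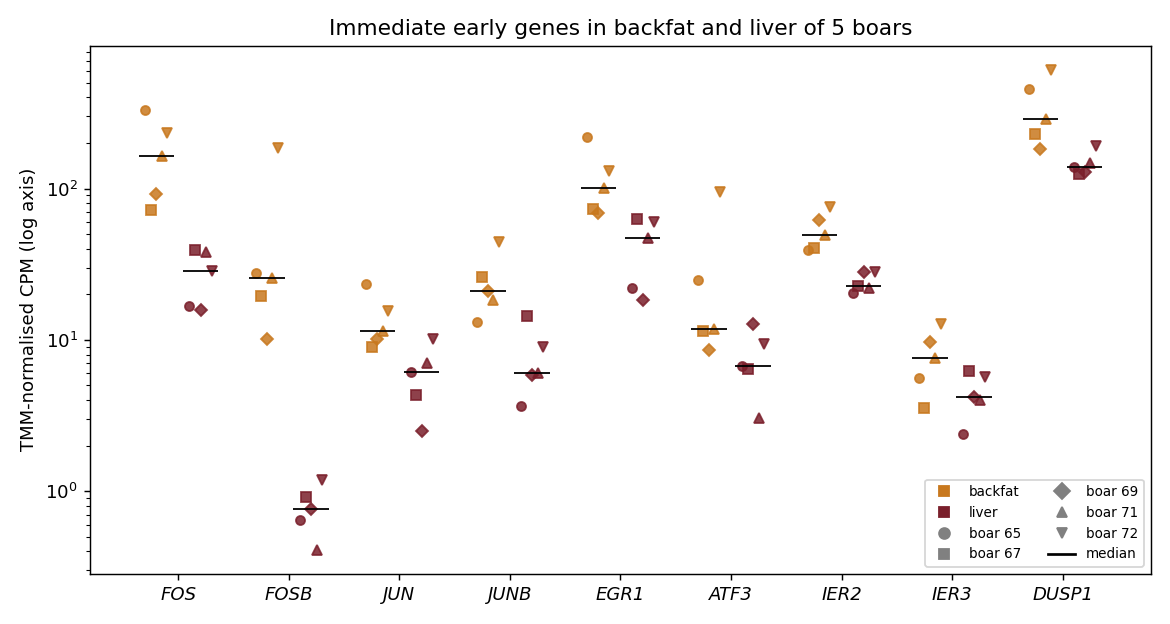
TMM-normalised CPM of the 9 genes (log axis) in each of the 5 backfat and 5 liver libraries, with a symbol for each boar and a line at the median. FOSB shows the widest gap between tissues, from 10.1 to 187 CPM in backfat and from 0.411 to 1.19 CPM in liver, while the points of IER3 and JUN overlap.

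FOS (ENSSSCG00000002383) encodes the founding partner of JUN in AP-1. It lies on chromosome 7 at 98449508 to 98451971 in Sscrofa11.1, with 4 exons, downstream of the CArG box shown above. Its level was 329 CPM in backfat 65, 71.7 in backfat 67, 92.0 in backfat 69, 165 in backfat 71 and 231 in backfat 72. In liver it was 16.8, 39.5, 15.8, 38.1 and 28.3 CPM in the same order of boars. The lowest backfat library was thus above the highest liver library, although the backfat libraries spread over 4.58-fold among themselves. The means were 178 ± 105 CPM in backfat and 27.7 ± 11.3 in liver (SD, n = 5 each), and the log2 fold change was 2.68 (SE 0.44, edgeR FDR 0.000208). Within boars the ratio of backfat to liver ranged from 1.82 in boar 67 to 19.5 in boar 65.

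FOSB (ENSSSCG00000031616) is the closest paralog of FOS and lies on chromosome 6 at 51836780 to 51844531, with 5 exons. It had 27.8, 19.4, 10.1, 25.8 and 187 CPM in backfat of boars 65, 67, 69, 71 and 72. In liver it had 0.648, 0.918, 0.764, 0.411 and 1.19 CPM, which rest on 13 to 44 reads per library. FOSB was therefore near the lower end of detection in every liver library and well above it in every backfat library. The difference was the largest of the 9 genes, with a log2 fold change of 6.09 (SE 0.84, edgeR FDR 5.3e-05). Backfat 72 stood well above the other backfat libraries. Without it the log2 fold change fell to 4.72 and remained a DEG.

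FOS and FOSB can also be compared within a library, per kilobase of exon, where no scaling between libraries enters. With the exonic lengths of the count table, the ratio of FOSB to FOS was 0.11, 0.35, 0.142, 0.202 and 1.04 in backfat of boars 65, 67, 69, 71 and 72. In liver the ratio lay between 0.014 and 0.0627, below every backfat library. The size of this ratio, though not its order among libraries, depends on the length assigned to each gene. FOS has an exonic length of 4915 bases in the count table and 1143 bases in RefSeq, and with RefSeq lengths, tried after the data were seen, the ratio in backfat 72 was 0.199. Reads were not counted over the RefSeq exons, so this value shows how strongly length matters and is not a better estimate.

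Levels of different genes were compared on the same scale of CPM per kilobase, as means of 5 libraries. DUSP1 came first in backfat with 182 CPM per kb, followed by EGR1 (38.1), FOS (36.2), IER2 (33.6), JUNB (23.6), FOSB (14.2), JUN (7.29), IER3 (5.65) and ATF3 (4.29). Apart from DUSP1 and EGR1, every pair of neighbours in this order overlapped between libraries. With RefSeq lengths DUSP1 (167) was still first, but FOS (156) came next to it, ATF3 (13.7) moved up to position 5 and JUNB (4.61) moved to the end. Reads were counted over Ensembl exons, so RefSeq lengths do not match the bases that were counted. JUNB, for example, has 1044 bases in the count table and 5350 in RefSeq. The RefSeq order therefore shows only that the ranking depends on length, and it is not a second measurement of levels. FOSB was lowest in liver with either length, at 0.207 and 0.169 CPM per kb.

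JUN and JUNB are the partners that bind DNA together with FOS proteins, and JUNB is often the weaker activator. JUN (ENSSSCG00000031912, chromosome 6 at 153686425 to 153687635, 1 exon) had 23.3, 8.97, 10.1, 11.5 and 15.5 CPM in backfat of boars 65, 67, 69, 71 and 72. In liver it had 6.11, 4.32, 2.50, 7.04 and 10.1 CPM. The lowest backfat library, that of boar 67, was below the highest liver library, that of boar 72, so the tissues overlapped. JUN was higher in backfat in 5 of 5 boars, and the log2 fold change was 1.21 (SE 0.37, edgeR FDR 0.0141).

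JUNB (ENSSSCG00000013735, chromosome 2 at 66214086 to 66219435, minus strand) had 13.2, 26.0, 20.9, 18.4 and 44.7 CPM in backfat. Its liver levels were 3.66, 14.4, 5.88, 6.03 and 8.95 CPM. The overlap came from backfat 65, the lowest of its tissue for this gene, and liver 67, the highest of its own. JUNB was higher in backfat in 5 of 5 boars, with a log2 fold change of 1.66 (SE 0.39, edgeR FDR 0.00316). The per-kilobase ratio of JUNB to JUN, with lengths of the count table, ran from 1.03 to 5.30 in backfat and from 1.09 to 6.10 in liver. The ranges overlapped.

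EGR1 (ENSSSCG00000014336), the gene with 5 CArG boxes, lies on chromosome 2 at 140440829 to 140445302. It had 218, 72.9, 68.8, 101 and 130 CPM in backfat of boars 65, 67, 69, 71 and 72. In liver it had 22.2, 62.7, 18.4, 47.3 and 59.7 CPM. The tissues did not overlap, but the gap was narrow, with 68.8 CPM in backfat 69 and 62.7 CPM in liver 67. The log2 fold change was 1.49 (SE 0.41, edgeR FDR 0.00781). Within boar 67 the ratio of backfat to liver was 1.16, and within boar 65 it was 9.83.

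ATF3 (ENSSSCG00000015595, chromosome 9 at 130772259 to 130829678, minus strand) had 24.8, 11.5, 8.57, 11.9 and 94.6 CPM in backfat. In liver it had 6.70, 6.42, 12.6, 3.06 and 9.33 CPM. One library, backfat 72, carried much of the mean, and in boar 69 ATF3 was lower in backfat than in liver, at a ratio of 0.678. The log2 fold change was 1.98 (SE 0.64, edgeR FDR 0.0198). Without backfat 72 it fell to 0.90 and was no longer past the threshold (edgeR FDR 0.0822), and limma-voom gave 1.45 with an adjusted p of 0.0784 on all libraries.

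IER2 (ENSSSCG00000013753, chromosome 2 at 65909638 to 65912491, minus strand) encodes a small nuclear protein. Its levels were 39.0, 40.5, 61.7, 49.4 and 75 CPM in backfat and 20.3, 22.8, 28.2, 22.2 and 28.0 CPM in liver. It was the most even of the 9 genes, with a 1.92-fold spread among backfat libraries and a 1.39-fold spread among liver libraries, and the tissues did not overlap. The log2 fold change was 1.13 with the smallest standard error of the set (SE 0.20, edgeR FDR 0.000451). Within boars backfat was 1.78 to 2.68 times as high as liver.

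IER3 (ENSSSCG00000027607, chromosome 7 at 23265560 to 23266905, minus strand), which encodes a regulator of cell survival, had 5.61, 3.52, 9.73, 7.55 and 12.7 CPM in backfat. Its liver levels were 2.39, 6.23, 4.22, 3.98 and 5.69 CPM. In boar 67 the backfat level was below that of liver, at a ratio of 0.565, and the other 4 boars had ratios between 1.90 and 2.35. The log2 fold change of 0.80 (SE 0.36) was not past the threshold (edgeR FDR 0.0752). Without backfat 67 it was 0.99 with an edgeR FDR of 0.0238, so that 1 library decided the call.

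DUSP1 (ENSSSCG00000016991, chromosome 16 at 51457924 to 51461095, 5 exons), the feedback phosphatase, was the most abundant of the 9 genes in both tissues. It had 458, 229, 183, 290 and 608 CPM in backfat of boars 65, 67, 69, 71 and 72, and 139, 125, 128, 147 and 191 CPM in liver. Only backfat 69 fell below the highest liver library, that of boar 72. The log2 fold change was 1.28 (SE 0.32, edgeR FDR 0.00443), and backfat was higher in 5 of 5 boars, by 1.43-fold in boar 69 to 3.29-fold in boar 65.

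**Figure D2:**
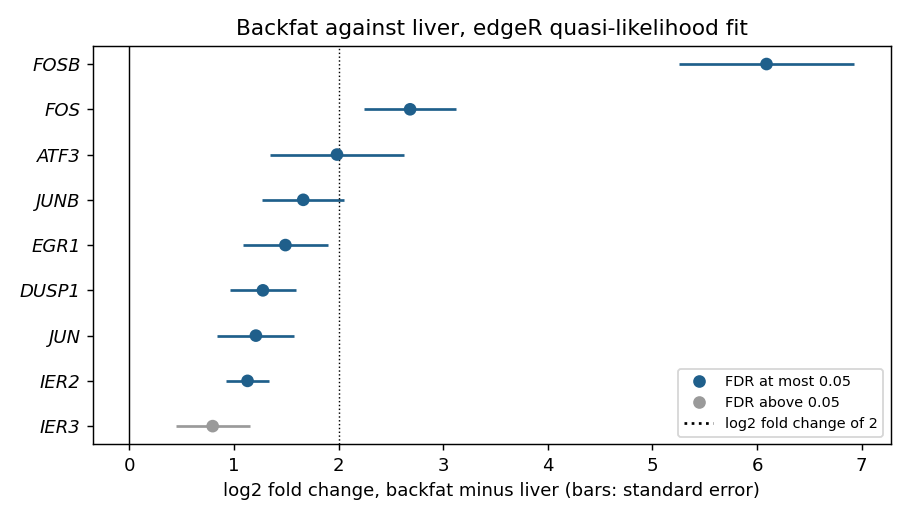
Log2 fold change of each of the 9 genes, backfat minus liver, from the edgeR fit on 5 libraries per tissue, with bars of 1 standard error and a dotted line at the DEG threshold of 2. All points lie above 0, FOSB at 6.09 and FOS at 2.68 lie beyond the dotted line, and IER3 at 0.80 is the grey point that did not pass the FDR threshold.

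The libraries of backfat differed more for these genes than for a typical gene. The median SD of log2 CPM among the 5 backfat libraries was 0.711 over the 9 genes and 0.329 over all tested genes, and in liver the medians were 0.630 and 0.483. Backfat 72 held the highest backfat level for 6 of the 9 genes and was among the top 2 libraries for all 9. Backfat 65 was highest for the other 3, which were FOS, JUN and EGR1. Over all tested genes, 16% had their highest backfat level in backfat 72 and 19.8% in backfat 65. In liver the highest levels fell to liver 67 for 4 genes, liver 72 for 3 and liver 69 for 2, where the shares over all tested genes were 32.6%, 12.7% and 21.5%. Together the 9 genes took between 0.0571% and 0.165% of all counts in backfat libraries and between 0.0179% and 0.0260% in liver libraries.

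**Figure D3:**
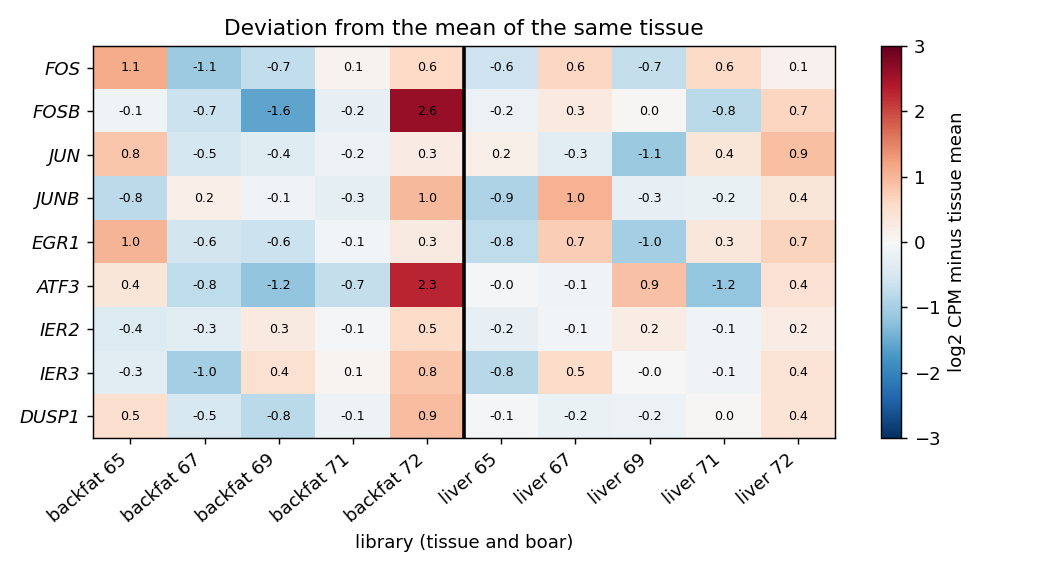
Deviation of each gene in each library from the mean log2 CPM of its own tissue, with red for above and blue for below the mean (colour scale and printed values in log2 CPM). Backfat 72 is above the mean for every gene and on average by 1.03, while backfat 67 and backfat 69 are lower by 0.58 and 0.52 on average.

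Markers of several cell types moved with the tissues, and their part in these differences was not tested. Endothelial markers (5 genes) summed to between 746 and 1545 CPM of all counts in backfat and between 93.7 and 151 in liver. Smooth muscle and pericyte markers (6 genes) ran from 710 to 1147 in backfat and from 117 to 256 in liver, and fibroblast markers (6 genes) from 30780 to 59400 and from 348 to 636. The sum of macrophage markers (6 genes) ran the other way, from 197 to 390 in backfat and from 639 to 1028 in liver. Not every gene of that list did so. CD68 ran from 18.5 to 32.2 CPM in backfat and from 11.8 to 31.0 in liver, and CD163 from 34.6 to 107 and from 67.2 to 126. CSF1R overlapped too, with 92.7 to 212 CPM in backfat and 115.5 CPM in liver 67. Lymphocyte markers (6 genes) overlapped, at 16.9 to 53.4 and 15.6 to 40.1. Of the 2 backfat libraries highest for these genes, backfat 65 also had the highest sum of skeletal muscle markers (4 genes), 582 CPM against 12 to 188 in the other backfat libraries and at most 118 in liver. Backfat 72 had the lowest. Backfat 65 and 72 were also the 2 highest backfat libraries for red cell markers (4 genes), at 463 and 576 CPM against 133 to 206 in the other 3 and 62.8 to 1283 in liver, and for fibroblast markers, at 53530 and 59400 CPM against at most 45780. Other lists did not pair them. Backfat 72 was the lowest backfat library for endothelial (746 CPM), smooth muscle and pericyte (710) and adipocyte markers (11860). Backfat 65 had 1401, 757 and 17030 CPM for these lists. Lymphocyte markers summed to 53.4 CPM in backfat 65 and 20.6 in backfat 72. Of the hepatocyte markers, CPS1 had 0 counts in backfat 65, 71 and 72, TAT in backfat 65, 67 and 72, and APOB in backfat 71. Of the adipocyte markers, LEP had 0 counts in liver 65, 67, 71 and 72, and ADIPOQ in liver 65 and 71.

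The other genes of the pathway were counted in 7 lists. For each count below, the shares over all tested genes were 28.0% higher in backfat and 27.0% higher in liver. In 22.9% of all tested genes every backfat library lay above every liver library. Of 10 other AP-1 subunits, 5 were higher in backfat, 1 was higher in liver and 4 did not pass the threshold, with a median log2 fold change of 0.67. The count higher in liver was 2 without backfat 69 or liver 65 and 3 without liver 71. The 3 with the largest change were FOSL1, JDP2 and MAFF. JDP2, a repressor that pairs with JUN proteins, had 17.5 to 54.2 CPM in backfat and 4.88 to 8.68 CPM in liver, with a log2 fold change of 2.30 (SE 0.31, edgeR FDR 4.7e-05). FOSL1, a further FOS paralog, had a log2 fold change of 4.24 (SE 1.16, edgeR FDR 0.00797), but its level ran from 0.214 to 15.9 CPM in backfat and overlapped with liver, and without backfat 72 the value was 2.88. Without liver 67, the highest liver library for FOSL1 at 0.864 CPM, it was 5.64, and without both backfat 69 and liver 67 it was 5.94. MAFF, a small partner protein of the MAF family, had a log2 fold change of 2.24 (SE 0.60, edgeR FDR 0.00720) and also overlapped.

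Of 4 EGR paralogs and EGR corepressors, 3 were higher in backfat and EGR2 did not pass the threshold. NAB2, which binds EGR1 and dampens it, had 11.1 to 65.9 CPM in backfat and 5.46 to 10.5 CPM in liver, with a log2 fold change of 1.88 (SE 0.42, edgeR FDR 0.00219). The log2 fold change of NAB1, the other corepressor, was 0.77 (SE 0.21, edgeR FDR 0.00672). EGR3 was scarce, with at most 0.977 CPM in backfat and 0.108 CPM in liver, at a log2 fold change of 2.85 (SE 0.57, edgeR FDR 0.00105). None of these 3 overlapped between tissues.

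Of 36 other immediate early genes, 21 were higher in backfat, 1 was higher in liver and 14 did not pass the threshold, with a median log2 fold change of 0.82. The count higher in liver was 2 without backfat 67, liver 71 or liver 72 and 3 without backfat 72. KLF4, a zinc finger factor, had 35 to 88.6 CPM in backfat and 1.14 to 6.58 CPM in liver, and its log2 fold change was 4.26 (SE 0.48, edgeR FDR 1.0e-05), or 4.90 without backfat 69 and liver 67. NR4A3, an orphan nuclear receptor, had a log2 fold change of 3.68 (SE 0.89, edgeR FDR 0.00367), which was 2.94 without backfat 72, 4.48 without liver 67 and 4.78 without backfat 69 and liver 67. ARC, best known from neurons, had 0.135, 8.49, 0.27, 6.14 and 57.2 CPM in backfat of boars 65, 67, 69, 71 and 72, and at most 0.405 CPM in liver. Its log2 fold change of 6.52 (SE 1.57, edgeR FDR 0.00363) therefore rested on 3 of 5 backfat libraries, was 4.57 without backfat 72 and 7.24 without liver 67, and was not past the threshold in limma-voom (adjusted p 0.11). Without both backfat 69 and liver 67, ARC was not among the 35 genes of this list that were tested. Backfat 72 held the highest backfat level for 26 of the 36 genes, and for 16% of all tested genes.

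Of 8 MAP kinase phosphatases other than DUSP1, 3 were higher in backfat, 4 were higher in liver and 1 did not pass. The count higher in backfat was 2 in 9 of the 10 fits that left out a single library, the exception being that without backfat 71, and also 2 with DESeq2, limma-voom or the boar as a block. DUSP4, a nuclear phosphatase, had 49.97 to 179 CPM in backfat and 7.99 to 13.6 CPM in liver, with a log2 fold change of 3.54 (SE 0.35, edgeR FDR 3.6e-06). DUSP9, which acts mainly on ERK kinases, was the reverse, with at most 0.336 CPM in backfat, in backfat 69, and 1.95 to 7.24 CPM in liver. Its log2 fold change was -5.71 (SE 0.91, edgeR FDR 0.000172), and -7.90 without backfat 69 or -7.93 without liver 67 as well. ENSSSCG00000032911 was also higher in liver, with a log2 fold change of -2.32 (SE 0.33, edgeR FDR 8.0e-05). The name table used here calls this identifier DUSP8, but the study's own table calls it TNNT3, so its identity is uncertain. DUSP1 and DUSP4 were thus higher in backfat than in liver, whereas DUSP9 was lower.

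Of 16 kinases and factors that switch immediate early genes on, 8 were higher in backfat, 2 were higher in liver and 6 did not pass. The count higher in liver was 1 in 9 of the 10 fits that left out a single library, the exception being that without liver 67. MAPK3, which encodes the kinase ERK1, had 25.6 to 41.7 CPM in backfat and 2.84 to 11.7 CPM in liver, with a log2 fold change of 2.11 (SE 0.31, edgeR FDR 9.1e-05). ELK3, a partner of SRF at the CArG box, had a log2 fold change of 1.76 (SE 0.26), and MRTFB, an actin-sensing SRF coactivator, 1.60 (SE 0.20). Neither overlapped between tissues.

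Heat shock proteins are another rapid stress response, driven by HSF1. Of 11 tested, none was higher in backfat in edgeR's test, where 1 had an unadjusted p under 0.05, and DESeq2 called 1. Without backfat 69 edgeR called 2, and with scaling by library size alone 4. HSPA5, a chaperone of the endoplasmic reticulum, was the only one higher in liver, with a log2 fold change of -1.20 (SE 0.41, edgeR FDR 0.0240), and this call was lost without backfat 65, 67 or 69 or liver 69, at values between -1.13 and -0.89, and with library size alone (-0.58). The heat shock genes varied among backfat libraries: for 11 of 11 the highest backfat level was in backfat 72, and for 10 of 11 the lowest was in backfat 69. Over all tested genes these shares were 16% and 20.2%. HSPH1, chosen after its values were seen, had 144, 643, 21.3, 448 and 802 CPM in backfat of boars 65, 67, 69, 71 and 72, and 76.9 to 178 CPM in liver. Of 8 genes of the ATF4 stress response, 3 were higher in backfat, 3 were higher in liver and 2 did not pass. ATF5 (log2 fold change -4.71, SE 0.38) and SESN2 (-2.61, SE 0.21) were higher in liver, and VLDLR (2.48, SE 0.30) was higher in backfat. Without TMM, using library size only, calls shifted towards backfat, with 28 of the 36 other immediate early genes and 13 of the 16 kinases and factors called higher there and none higher in liver. Under it 6 other AP-1 subunits and 4 EGR genes were higher in backfat and none in liver, as against 4 and 2 of the MAP kinase phosphatases and 5 and 2 of the ATF4 list.

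**Figure D4:**
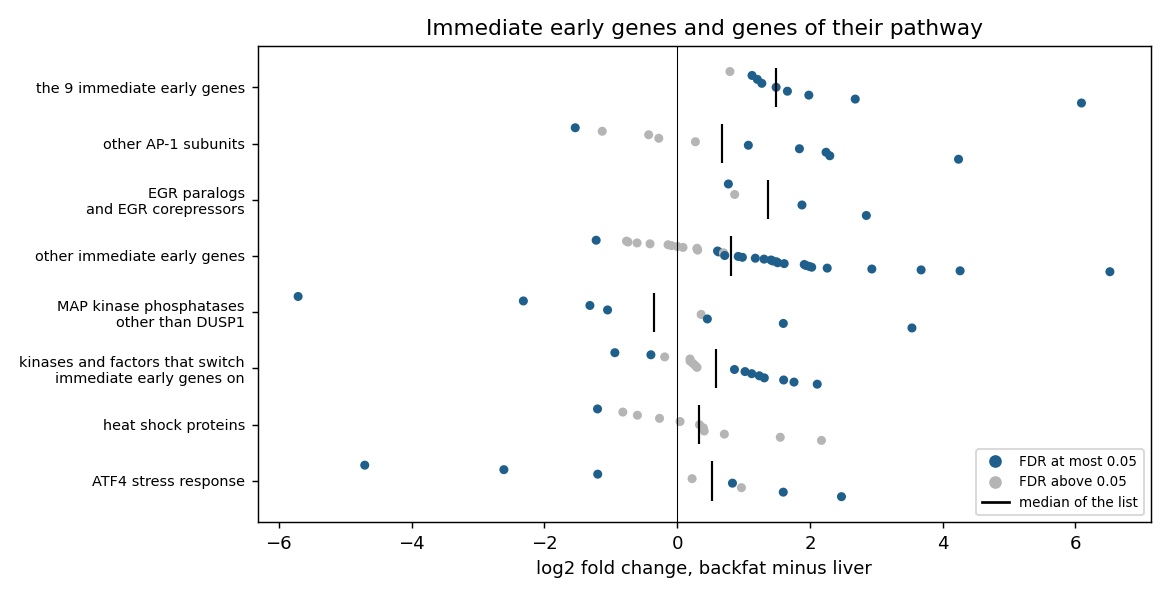
Log2 fold change, backfat minus liver, of the 9 genes and of each gene in the 7 pathway lists, in blue where the edgeR FDR was at most 0.05 and in grey otherwise, with a line at the median of each list. The median of the 9 genes is 1.49, that of the MAP kinase phosphatases other than DUSP1 is -0.34, and heat shock proteins lie on both sides of 0.

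Genes with the most similar pattern were sought among 11841 genes by Pearson correlation over the 10 libraries of log2 CPM, after the mean of each tissue was subtracted. With the mean of the 9 genes, PPP1R15A, a stress-induced phosphatase subunit, came first at r = 0.954, followed by MED26 (0.945), PTN (0.906), LOXL4 (0.885) and PPARGC1B (0.883). With FOS alone the first 5 were CSPG4 (0.918), PPARGC1B (0.908), TUB (0.907), APLP1 (0.876) and POMT2 (0.861). These correlations describe 10 libraries that share depth and scaling, and they were picked as the highest of many. Of the first 5 genes, PPP1R15A (log2 fold change 1.50), PTN (1.56) and PPARGC1B (1.45) were also higher in backfat, whereas MED26 (-0.25, edgeR FDR 0.176) and LOXL4 (0.04, edgeR FDR 0.899) did not pass the threshold. Of the first 5 for FOS, 4 were higher in backfat, and POMT2 (-0.09, edgeR FDR 0.627) did not pass.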

How the data were processed

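Backfat and liver of 5 boars were sequenced by RNA-seq and whole-genome bisulfite sequencing. The files available here for the 10 bisulfite libraries count calls by position in the read, and they were not used. The authors checked and trimmed RNA-seq reads (FastQC, Trimmomatic), aligned them to Sscrofa11.1 (HISAT2) and deposited raw counts per gene made with featureCounts 2.0.1 on Ensembl release 99, without strand, so that reads of overlapping antisense genes cannot be told apart. The counts are not normalised. Replicate numbers of the labels could not be matched to the boar numbers of the columns, so libraries are named from the columns. Positions are those of RefSeq's annotation of the same build, which is not the annotation used for counting.

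Counts were filtered by filterByExpr, normalised by TMM and tested in edgeR 4.0.16 (R 4.3.3) with the quasi-likelihood test, tissue as the only term, and Benjamini-Hochberg adjustment over 16275 genes. Each standard error is the absolute log2 fold change over the root of F. P-values measure the spread between 5 animals per tissue. Columns with the same boar number were taken to come from the same animal, because the study sampled both tissues from 5 boars. The correlation of their deviations from the tissue means was 0.238, 0.107, 0.049, 0.165 and 0.0984 for boars 65, 67, 69, 71 and 72. For boar 69 the backfat column correlated more highly with the liver column of another boar, which was not so for the other boars. Alternatives were other normalisations, filters, DESeq2 1.42.0, limma-voom (limma 3.58.1), the boar as a block, and leaving out libraries. Figures were drawn with matplotlib 3.10.9 in Python 3.11.15.

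All members are described. From each pathway list the 3 genes with the largest absolute log2 fold change at an FDR of at most 0.05 were named, and the 5 genes of most similar pattern among those with a mean log2 CPM of at least 1. Members and lists were chosen with earlier results of these data known. Some listed genes without a matching identifier (among them BATF, MAFK, EGR4, BTG2, DUSP7, ELK1, CREM, HSPA1A, HSPA1B and ATF4) were not analysed here, and MCL1 did not pass the filter.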

Additional observations from a re-analysis of the deposited data

Results flagged for a closer look

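In 2 cases a library stood far from the other 4 of its tissue by Dixon's criterion for 5 values, which compares the gap to the nearest library with the whole range. FOSB had 187 CPM in backfat 72 and 27.8 CPM in the next library, a gap of 0.9 of the range. ATF3 had 94.6 CPM in backfat 72 and 24.8 CPM in the next library, a gap of 0.811 of the range. For normally distributed values, chance flags about 1 in 20 groups of this size. The criterion was applied to CPM and not to log2 CPM, so that rate need not hold here. In all, 18 groups were examined, each of the 9 genes in each tissue, and they are not independent because they share libraries.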

How the results depend on the processing

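All 9 genes were higher in backfat under all 19 alternatives. The number past the FDR threshold was 8, and 7 in limma-voom and 9 with library size alone. Leaving out single libraries gave 7 to 9, with ATF3 lost without backfat 72 and IER3 gained without backfat 67. The number of DEGs, 2, was 5 with library size alone, 4 without backfat 69 and liver 67, and 2 to 3 when a single library was left out. Library size alone moved the median log2 fold change of all tested genes from 0.00 to 0.71 and that of the 9 genes to 2.30, and under it IER3 was past the threshold (1.50, edgeR FDR 0.00134). With the boar as a replicate block, 8 of the 9 genes were past the threshold and 2 were DEGs, and no call among the 9 changed. It changed the call of HSPA5 among the other genes named (edgeR FDR 0.06). The genes of the pathway lists past the threshold numbered 55, and 51 to 57 with a single library left out. Among all tested genes 3633 were DEGs, and 1854 with at least 10 counts in every library, where fewer genes were tested. Levels near 0, such as FOSB, EGR3, ARC and FOSL1 in liver and DUSP9 in backfat, rest on few reads.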
